A study of Homo sapiens with 4 samples.

Results

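To examine where FOXC1 sits at the genes of cell-matrix adhesion, 38 integrin and focal adhesion genes were taken from a fixed list of names, out of 20163 protein-coding genes on chromosomes 1 to 22, X and Y. All 38 were found by symbol in the GENCODE annotation of GRCh37, the assembly that hg19 corresponds to. The list holds 26 integrin subunits, of which 18 are alpha and 8 are beta subunits, and 12 proteins that act inside the cell at focal adhesions. The list is one of names, drawn up with earlier results of these data known, and its rule uses no ChIP value. A peak was given to a gene when its summit lay in the gene body or within 20 kb of it, which is called the gene window here. This places peaks by position alone, and no expression value enters.

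FOXC1 is a transcription factor with a forkhead domain. It was immunoprecipitated with the antibody D8A6 from the human bladder cancer cell line J82, kept in DMEM with 10% FBS, in 2 biological replicates, and 2 input libraries without antibody served as background for peak calling. All 4 libraries come from this 1 cell line with no further treatment, and the lists analysed here are those of the FOXC1 ChIP replicates. About 43200000 ChIP reads stood behind the replicate 1 list and 41500000 behind that of replicate 2, and the lists held 22405 and 41789 peaks. A ChIP value averages over all cells of a culture, so the share of cells bound and the occupancy per cell cannot be told apart.

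Integrins are receptors that span the plasma membrane as pairs of 1 alpha and 1 beta subunit and bind collagens, laminins, fibronectin, vitronectin or counter-receptors on other cells. On the inner side, talin binds the tail of the beta subunit, vinculin and alpha-actinin connect it to actin filaments, and focal adhesion kinase, paxillin and integrin-linked kinase assemble signalling complexes there. Urothelial cells rest on a basement membrane through laminin-binding integrins, and adhesion of this kind is altered in many carcinomas.

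Sequences from 8 of the 9 best regions found in both replicates at these genes are printed first, as examples of the windows searched for motifs below. The ninth, in ITGA10, was left out because its window reaches an untranslated stretch. A shared region is a run of overlapping peaks with at least 1 peak from each replicate (overlap of at least 1 bp), and its summit was set midway between the summits of the best peak of each. The reference sequence is the plus strand of GRCh37, 50 bp to either side of the summit, read 5′ to 3′. Capitals mark matches, on either strand, to 4 forkhead heptamers or to that of the factor AP-1. The forkhead heptamers are GTAAACA, the core motif of the family, then GTAAATA as a variant of it, ATAAACA as another, and finally ATAAATA, and the AP-1 heptamer is TGACTCA, which reads TGAGTCA on the other strand.
ITGB8 intron 1, chr7:20391672-20391772: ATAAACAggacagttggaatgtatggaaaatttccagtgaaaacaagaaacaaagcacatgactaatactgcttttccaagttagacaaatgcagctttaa
ITGA1 intron 1, chr5:52133702-52133802: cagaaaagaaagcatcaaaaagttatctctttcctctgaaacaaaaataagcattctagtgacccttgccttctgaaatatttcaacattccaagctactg
ITGA9 intron 25, chr3:37824141-37824241: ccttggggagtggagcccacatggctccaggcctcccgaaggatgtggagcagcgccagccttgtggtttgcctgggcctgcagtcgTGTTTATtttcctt
TLN2 intron 44, chr15:63075892-63075992: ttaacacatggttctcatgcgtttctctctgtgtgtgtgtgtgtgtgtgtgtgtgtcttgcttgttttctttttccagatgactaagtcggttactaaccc
ITGB3 intron 10, chr17:45371747-45371847: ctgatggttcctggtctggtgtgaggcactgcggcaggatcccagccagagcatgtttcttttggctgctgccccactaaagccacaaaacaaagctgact
ITGA2 intron 1, chr5:52315304-52315404: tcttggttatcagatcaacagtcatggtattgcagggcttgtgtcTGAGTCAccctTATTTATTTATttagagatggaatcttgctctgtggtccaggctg
PARVA, 4477 bp past the 3′ end, chr11:12561330-12561430: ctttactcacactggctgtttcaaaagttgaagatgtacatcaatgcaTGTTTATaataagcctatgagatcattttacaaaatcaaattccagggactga
ITGA1 intron 17, chr5:52218277-52218377: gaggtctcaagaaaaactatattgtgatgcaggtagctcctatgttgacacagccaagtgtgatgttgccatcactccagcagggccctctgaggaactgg
Of these 8 windows, 4 held a forkhead heptamer and 4 held neither kind. In PARVA the match was centred 1 bp from the summit, and in ITGA2 the nearer of 2 overlapping matches was centred 9 bp away. The ITGA2 window also held an AP-1 heptamer, which was nearer to the summit at 2 bp. In ITGA9 and ITGB8 the forkhead match lay 40 and 47 bp out, at the edge of the window.

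FOXC1 peaks were listed at nearly all of these genes in at least 1 replicate and at most of them in both. Being listed is a low bar, since the lists reach down to a −log10 p of 2.004 in replicate 1 and 2.017 in replicate 2, and single peaks at the members to a −log10 q of 0.088. In replicate 1, 27 of the 38 genes had a peak in their window, where 47.0% of all protein-coding genes did. In replicate 2 the number was 36 of 38, beside 66.2% of all. A region shared by both replicates lay at 25 of 38 genes (65.8%), beside 33.0% of all protein-coding genes. At 17 of 38 genes a shared region had a −log10 q of at least 5 in both replicates, called strong below, beside 20.2% of all. The genes are longer than most, with a median window of 123 kb against 67.2 kb over all protein-coding genes, so the counts are also given by window length below.

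In all, the 38 windows held 80 peaks of replicate 1 and 196 of replicate 2, and these formed 66 shared regions, of which 38 were strong. A further 14 peaks were listed in replicate 1 alone and 129 in replicate 2 alone. The shared regions were spread unevenly. Of the 25 genes with one, 11 had 3 or more and together held 46 of the 66, while 14 had 1 or 2. Each shared region lay in the window of 1 member only. Among the single peaks, ITGAM and ITGAX windows have 1 replicate 2 peak in common, and ITGAX and ITGAD have 1 peak of each replicate in common.

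**Figure D1:**
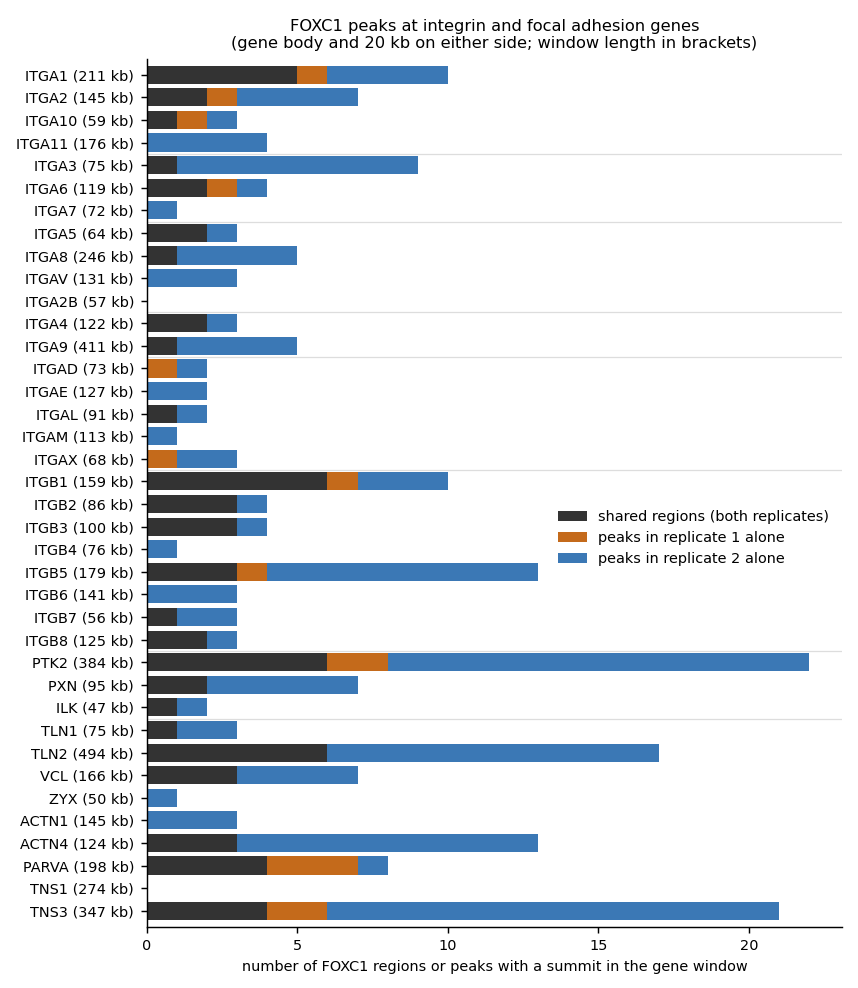
Number of FOXC1 shared regions and of peaks in 1 replicate alone (horizontal axis) in the window of each of the 38 genes (rows, in order of their role, with the window length in kb). PTK2, TNS3 and TLN2 have the longest bars, while ITGA2B and TNS1 have none.

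The window length was then taken into account by comparing genes of like length. Of windows under 60 kb, 3 of 5 members had a shared region beside 19.3% of all protein-coding genes. For 60 to under 100 kb it was 7 of 11 members beside 29.9%, and for 100 to under 200 kb it was 9 of 15 beside 48.9%. At 200 kb or more, 6 of 7 members had one beside 69.6%. The share of members was thus above the share of all genes in each of the 4 classes, by least in windows of 100 to under 200 kb, and each class holds few members. The mean number of shared regions per gene was 0.60 for members and 0.236 for all genes in the shortest class, and 3.29 against 2.02 in the longest. In the number of replicate 2 peaks, single genes ranged widely within their length class. The share of protein-coding genes of the class with as many peaks or more was 5% or less for 8 of the 38 members, over 50% for 10 and between these for 20, with a median of 27.3%.

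**Figure D2:**
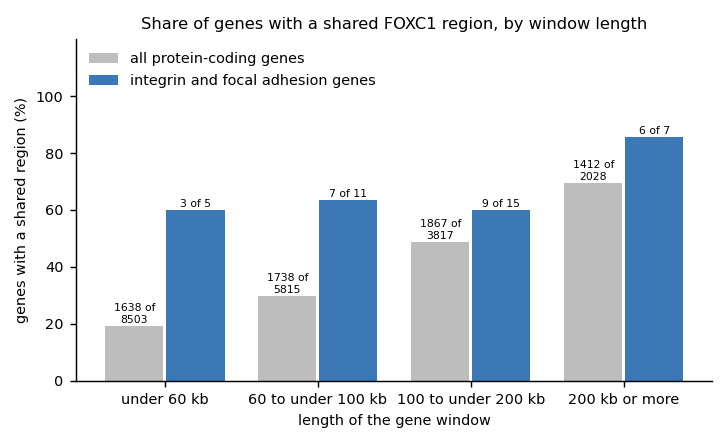
Share of genes with at least 1 shared FOXC1 region (vertical axis, percent) by length of the gene window, for all protein-coding genes (grey) and the integrin and focal adhesion genes (blue), with counts above the bars. The member share is the higher in all 4 classes, from 60% against 19.3% in the shortest to 85.7% against 69.6% in the longest.

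Per Mb of window, counting overlapping windows once, the members held 11.7 shared regions and 6.76 strong ones, and all protein-coding genes held 5.28 and 2.69. The integrin subunits had 11.2 shared regions per Mb and the intracellular proteins 12.5. Strong regions numbered 7.44 per Mb at the integrins and 5.83 at the intracellular proteins, and neither difference was tested.

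The alpha subunits were grouped mainly by the ligands of the integrins they form. Of the 4 collagen-binding subunits, ITGA1, ITGA2 and ITGA10 had shared regions, 8 in all with 6 strong, and ITGA11 had 4 peaks of replicate 2 alone. ITGA1, which pairs with beta1 to bind collagen IV, had 5 shared regions, the most of any alpha subunit. Its best was at chr5:52133257-52134185 in intron 1, 50 kb from the 5′ end. The fold enrichment there, which is the ChIP pileup at the summit over the local background, was 13.3 in replicate 1 and 31.9 in replicate 2, or 22.6 ± 13.1 (SD, n = 2). It rested on 120 and 281 reads over the summit, with a −log10 q of 90.1 and 287. Both replicates placed the summit at the same base, and the region took place 397 among the 13238 shared regions of the genome when each was placed by its poorer −log10 p rank of the replicates. A second ITGA1 region, chr5:52218131-52218624 in intron 17, had a fold enrichment of 9.24 and 15.1 from 51 and 107 reads, with a −log10 q of 31.4 and 79.0.

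ITGA2, the other main collagen receptor subunit of epithelial cells, lies next to ITGA1 on chromosome 5. Its best region, chr5:52314967-52315751 in intron 1, had a fold enrichment of 8.41 and 24.1 (16.2 ± 11.1, SD, n = 2) from 83 and 157 reads, with a −log10 q of 46.2 and 145. The replicates differed more in enrichment than in reads here, and the local background enters the former alone. ITGA10 had 1 shared region, chr1:145542378-145543126, with a summit in exon 30 near the 3′ end of the gene, and it is the single region of the 66 with its summit in an exon of the gene's main transcript. Its fold enrichment was 10.6 and 25.9 from 76 and 135 reads, with a −log10 q of 50.2 and 132. The windows of ITGA1 and ITGA2 overlap, yet they had no peak in common.

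Of the laminin-binding subunits, ITGA6, which with ITGB4 anchors epithelium to its basement membrane, had 2 shared regions. The better one, chr2:173306724-173307335 in intron 1, had a fold enrichment of 5.46 and 12.1 from 29 and 66 reads, with a −log10 q of 11.2 and 43.9. The other, chr2:173293112-173293513, lay 818 bp from an ITGA6 start site and nearer, at 4 bp, to a start of another annotated gene. It had 2.69 and 7.63 from 21 and 39 reads, with a −log10 q of 2.13 and 19.2. This region was the only one of the 66 within 2 kb of the 5′ end of the member's gene body itself. ITGA3, whose product pairs with beta1 on laminin, had 9 replicate 2 peaks. Of protein-coding genes with a window of 60 to under 100 kb, 0.378% had as many or more. In shared regions, 29.9% of that class had as many as ITGA3 or more. Of the 9 peaks, 1 was shared, at chr17:48157160-48157667, 260 bp from the start of an ITGA3 transcript and in intron 21 of the main one. It had a fold enrichment of 2.66 and 4.77 from 16 and 24 reads and a −log10 q of 1.38 and 7.08. The unshared ones had a −log10 q of 0.312 to 3.625. ITGA7, the laminin-binding subunit of muscle, had 1 peak, in replicate 2.

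The 4 alpha subunits of integrins that recognise the RGD tripeptide of fibronectin and vitronectin had no strong region. Only 20.2% of all protein-coding genes had one, so its absence at 4 genes does not set them apart. ITGA5, of the fibronectin receptor, had 2 shared regions upstream of the gene, 2091 and 4131 bp from its 5′ end, with fold enrichment of 3.29 and 4.20 at the nearer and 3.64 and 3.44 at the farther. ITGA8 had 1 shared region, with 2.50 and 4.58, in a window of 246 kb. ITGAV, which pairs with several beta subunits, had 3 peaks in replicate 2 and none in replicate 1. ITGA2B, the platelet subunit, had no peak in either list, which at this depth does not show that FOXC1 is absent.

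ITGA4 and ITGA9 form a separate branch that also binds VCAM1. ITGA9 had 1 shared region in its 411 kb window, and it was among the 3 best of all members. At chr3:37823778-37824512 in intron 25, also under an antisense transcript, the fold enrichment was 15.8 and 30.9 (23.3 ± 10.7, SD, n = 2) from 94 and 167 reads, with a −log10 q of 79.2 and 173. The summit was 2685 bp from the start of an ITGA9 transcript. ITGA4 had a strong region at chr2:182410667-182411366, 7288 bp past its 3′ end and inside the neighbouring gene CERKL, with 3.98 and 7.25 from 28 and 55 reads and a −log10 q of 7.07 and 24.8.

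The 5 subunits of leukocyte integrins had the fewest regions of the role groups, with 1 shared region in 0.424 Mb of window. It lay in ITGAL, the alpha subunit of LFA-1, and was weak, with a fold enrichment of 2.90 and 3.44 from 14 and 17 reads. ITGAE and ITGAM had peaks in replicate 2 alone, and in ITGAD and ITGAX the peaks of the replicates did not overlap.

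The beta subunits were the densest role group. Of the 8, 6 had a shared region, and their windows held 18 shared regions, 15 of them strong, or 19.5 shared regions per Mb. The best region of any member was in ITGB8, whose product pairs with alphaV and activates latent TGF-beta. At chr7:20391283-20393130 in intron 1, 21.4 kb from the 5′ end, the fold enrichment was 19.6 in replicate 1 and 38.2 in replicate 2 (28.9 ± 13.2, SD, n = 2). It rested on 104 and 200 reads, with a −log10 q of 98.1 and 225, and took place 354 of 13238. A second ITGB8 region, chr7:20447090-20447765 in intron 12, was nearly equal in the replicates at 11.8 and 12.2 (11.98 ± 0.242, SD, n = 2), from 60 and 93 reads with a −log10 q of 43.6 and 61.1.

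ITGB3, the beta subunit of the vitronectin and platelet receptors, had 3 shared regions, all strong. At the best, chr17:45371399-45372210 in intron 10, fold enrichment was 18.1 and 24.0 (21.0 ± 4.19, SD, n = 2) from 93 and 125 reads, with a −log10 q of 84.8 and 118. This region had the second highest replicate 1 value of the members, after ITGB8. ITGB5, another vitronectin receptor subunit, had 12 replicate 2 peaks and 3 shared regions, all strong. Of protein-coding genes with a window of 100 to under 200 kb, 1.10% had as many replicate 2 peaks or more. In shared regions the share was 8.02%. The best ITGB5 region, chr3:124597508-124598220, was 222 bp from the start of an ITGB5 transcript within intron 1 of the main one. It had 6.32 and 15.0 from 57 and 115 reads and a −log10 q of 25.1 and 83.7. A second, chr3:124605275-124605799, was 688 bp from another such start, with 7.25 and 11.2 from 52 and 72 reads and a −log10 q of 26.1 and 45.6. ITGB5 was the one member with more than 1 region within 2 kb of its own start sites.

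ITGB1, the beta subunit shared by most matrix receptors, had 6 shared regions, 4 of them strong. As many or more were found at 0.603% of the protein-coding genes of its length class. In replicate 2 peaks the share was 3.48%. The best lay 4618 bp upstream of the gene body at chr10:33298822-33299629, inside the overlapping gene ITGB1-DT. It had 4.84 and 11.3 from 31 and 69 reads and a −log10 q of 10.3 and 43.98. The main ITGB1 transcript starts farther inside the body than its edge. The 2 ITGB1 regions in the body but outside that transcript also lay in ITGB1-DT. Of these, chr10:33270447-33272190 was 3 bp from an ITGB1-DT start. ITGB2, the beta subunit of leukocyte integrins, had 3 strong regions in its window, 1 of them in the gene body. The 5 leukocyte alpha subunits had 0, where 20.2% of all protein-coding genes had at least 1. The best ITGB2 region lay 15361 bp past its 3′ end, inside PTTG1IP, at chr21:46289880-46290872. It had 5.46 and 8.58 from 29 and 44 reads and a −log10 q of 11.2 and 23.2. Another lay 18996 bp past the 3′ end, also inside PTTG1IP. The one in the body was 615 bp from an ITGB2 start site at chr21:46331751-46332277. Its fold enrichment was 4.26 and 4.39 from 21 and 22 reads, with a −log10 q of 5.85 and 5.62. ITGB7 had 1 weak shared region past its 3′ end, and ITGB4 and ITGB6, both epithelial subunits, had 1 and 3 peaks in replicate 2 alone.

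The 3 signalling proteins each had a shared region. PTK2, the gene of focal adhesion kinase, had the most replicate 2 peaks of all members at 21, beside 8 in replicate 1, and 6 shared regions. Of genes with a window of 200 kb or more, 2.47% had as many replicate 2 peaks or more, and 8.19% as many shared regions or more. Only 1 of the 6 was strong, chr8:141977158-141977620 in intron 1, with a fold enrichment of 3.85 and 6.99 from 34 and 53 reads and a −log10 q of 8.25 and 22.99. The other 5 had a −log10 q under 5 in replicate 1. PXN, the gene of the scaffold paxillin, had 2 shared regions. Its better one, chr12:120632598-120633366, was 15351 bp past the 3′ end of PXN and 373 bp from the start of GCN1, with 5.48 and 11.8 from 34 and 61 reads and a −log10 q of 13.1 and 40.7. ILK had 1 shared region, which was also nearer to a start site of another gene, TAF10, at 223 bp, than to its own at 4017 bp.

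Of the 9 proteins that link integrins to actin, 6 had shared regions, 21 in all with 12 strong. The best lay in TLN2, the gene of a talin, at chr15:63075624-63076333 in intron 44. Its fold enrichment was 15.5 and 28.4 (21.9 ± 9.10, SD, n = 2) from 79 and 148 reads, with a −log10 q of 66.8 and 149. TLN2 had 5 more shared regions in its 494 kb window, of which chr15:62747116-62748116 was 1921 bp from a TLN2 start site, with 6.58 and 13.3 from 33 and 69 reads and a −log10 q of 15.5 and 49.1. TLN1, which encodes the talin of most cells, differed from it in having a single weak region, 17788 bp upstream and inside RGP1, with 3.05 and 3.06 from 16 and 15 reads.

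PARVA, the gene of the ILK partner alpha-parvin, had 4 shared regions and was the only member with fewer peaks in replicate 2 (5) than in replicate 1 (7). Its best, chr11:12561023-12561655, lay past the 3′ end in an intron of another annotated gene, with a fold enrichment of 9.71 and 22.7 (16.2 ± 9.16, SD, n = 2) from 65 and 135 reads and a −log10 q of 40.8 and 123. VCL, which encodes vinculin, had 3 strong regions, and the best, chr10:75839141-75839881 in intron 6, had 6.97 and 16.4 from 35 and 86 reads with a −log10 q of 17.4 and 67.6. TNS3, a tensin gene, had 19 replicate 2 peaks and 4 shared regions. Its best, chr7:47521650-47522766 in intron 3, was 1008 bp from the start of a TNS3 transcript, with 5.46 and 11.1 from 29 and 57 reads and a −log10 q of 11.2 and 36.1.

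The alpha-actinins crosslink actin. ACTN4 had 13 replicate 2 peaks, a number found or passed at 0.891% of genes of its length class, but 3 in replicate 1 and no strong region. Its 3 shared regions were matched or passed at 8.02% of that class. ACTN1 and ZYX, the gene of zyxin, had 3 and 1 peaks in replicate 2 alone. TNS1, the other tensin among the members, had no peak in either list over 274 kb. No peak in either list was seen in 1 of 7 members with a window of 200 kb or more, beside 5.42% of all such genes. TNS3 and TNS1 thus stand far apart among the members in their number of peaks.

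**Figure D3:**
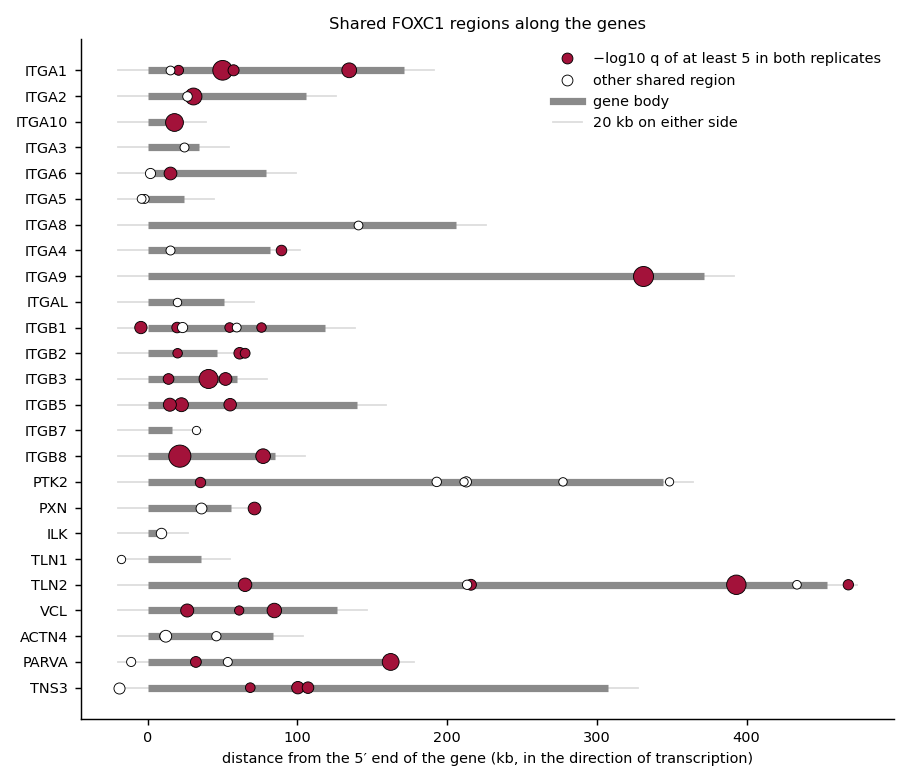
Summits of the shared FOXC1 regions along the 25 genes that have one. The horizontal axis is the distance from the 5′ end of the gene in kb in the direction of transcription, thick bars are gene bodies, thin lines the 20 kb on either side, filled circles strong regions and open circles the others, with circles larger at higher enrichment. Of the 66 summits, 51 lie in the bodies and 1 lies within 2 kb of a 5′ end.

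Most of the shared summits lay inside the genes. Of the 66, 51 were in the body of the member, 6 upstream and 9 downstream. In the body, 24 were in the first intron of the main transcript and 24 in later introns, 1 was in an exon and 2 were outside the main transcript. Of the 15 outside the body, 11 were in another annotated gene, and 4 members (ITGA5, ITGB7, ILK and TLN1) had shared regions only outside their body. For these 4 the assignment to the gene rests on the 20 kb rule alone. The summits nearest to that limit lay 18987 bp upstream of TNS3 and 18996 bp past the 3′ end of ITGB2.

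Within 2 kb of the start of any annotated transcript lay 20 of the 66 summits, or 30.3% (95% Wilson interval 20.6 to 42.2), beside 20.05% of all 13238 shared regions, those far from any gene included. Only 7 of the 20, at 6 of the 38 genes, were near a start of the member itself, beside 8.64% of all protein-coding genes with such a summit. Those genes were ITGA3, ITGA6, ITGB2, ITGB5, TLN2 and TNS3. The other 13 were near starts of other genes alone, as at PXN and ILK.

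The values were then compared between the replicates. Fold enrichment was the higher in replicate 2 at 61 of the 66 regions, with a median ratio of 1.73 and a range of 0.834 to 4.10. Over all shared regions the ratio had a median of 1.69 and replicate 2 was the higher at 91.9%, values close to those of the members. The 5 regions that were higher in replicate 1 lay in ITGA1, ITGA5, TLN2, TNS3 and PTK2, and each had less than 5-fold enrichment in both. In reads over the summit the median ratio was 1.85, and the exact 95% interval of the ratio, which covers counting error only, lay above 1 at 42 regions, held 1 at 24 and lay below 1 at 0. All 12 best regions had an interval above 1. The ratio was 2.34 (1.88 to 2.92) at the best ITGA1 region, 1.92 (1.51 to 2.46) at that of ITGB8 and 1.34 (1.02 to 1.78) at that of ITGB3. With 2 replicates of 1 group there is no contrast to test. Since replicate 2 was the higher at most shared regions of the genome, an SD between the replicates holds a shift common to the lists. The genes are therefore compared within each replicate.

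Within the replicates, the order at the top of the list was only partly the same. ITGB8, ITGA1, ITGA9, ITGB3 and TLN2 had mean enrichments from 21.0 to 28.9, with SDs from 4.19 to 13.2. ITGB8 had the highest value of the members in each replicate. It had 19.6 in replicate 1, before 18.1 at ITGB3, and 38.2 in replicate 2, before 31.9 at ITGA1, and this was not tested. Below ITGB8 the order changed with the replicate, and ITGB3 was second in replicate 1 and below ITGA10 and ITGA2 in replicate 2. In both replicates these 5 were above VCL, ITGB5 and the second region of ITGA1. Over the 66 regions the median enrichment was 4.02 in replicate 1 and 7.25 in replicate 2, near the 3.79 and 6.71 of all shared regions. In median enrichment the regions were thus of ordinary strength as a set. Of the 66, 3 were among the first 500 and 8 among the first 1000 of the 13238 shared regions of the genome. Strong regions made up 57.6% of the 66, beside 50.8% of all shared regions, and the difference was not tested.

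**Figure D4:**
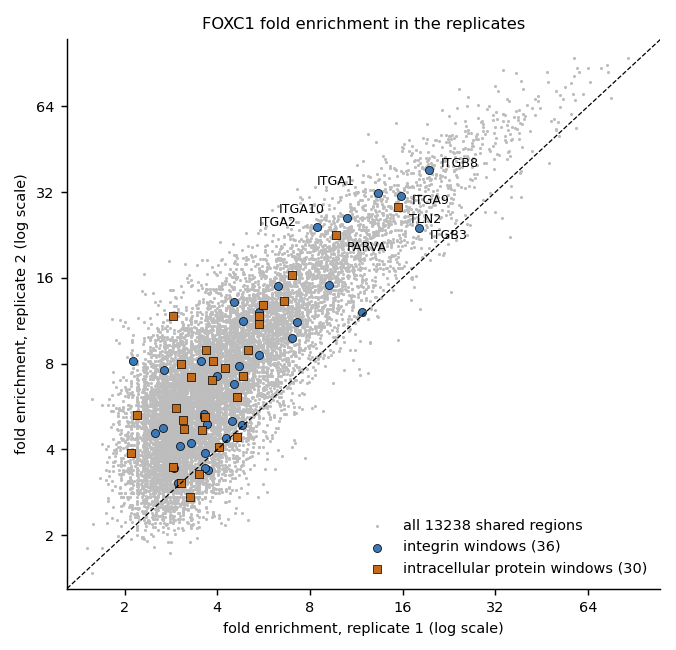
Fold enrichment at the summit in replicate 1 (horizontal) and replicate 2 (vertical), both on log scales, for all 13238 shared regions (grey) and for those in integrin (blue circles, 36) and intracellular adhesion protein windows (orange squares, 30), with equality as a dashed line. Of the 66 member regions, 61 lie above the line, and the labelled best regions reach from 8.41 to 19.6 in replicate 1.

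The replicates agreed well on position. The summits of the best peaks were a median of 34 bp apart (28 bp over all shared regions). At 59 of 66 regions (89.4%) they were within 100 bp, close to the 88.1% of all shared regions. Of the 80 replicate 1 peaks in the windows, 66 (82.5%, 72.7 to 89.3) overlapped a replicate 2 peak, beside 59.6% of the whole list. From the side of replicate 2, 67 of 196 peaks (34.2%, 27.9 to 41.1) overlapped, beside 31.7%. More peaks were listed in replicate 2, the longer list, at 32 of the 38 genes, beside 50.4% of all protein-coding genes, of which many have no peak in either list, and the numbers were equal at ITGA10, ITGA6 and ITGAD.

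The peaks seen once differed in strength between the lists. The 14 in replicate 1 alone reached a fold enrichment of 3.27, and 0 had a −log10 q of 5 or more. The highest was in TNS3 intron 2, chr7:47562953-47563236, with 16 reads and a −log10 q of 2.59. The 129 in replicate 2 alone ranged from 2.02 to 9.86, and 22 of them (17.1%) had a −log10 q of 5 or more, beside 23.4% of all peaks of replicate 2 alone. Of the 22, 8 lay in PTK2. The strongest was in TLN2 intron 39 at chr15:63054820-63055300, 360 bp from a TLN2 start site, with 51 reads and a −log10 q of 30.5. This value is above that of many shared regions in replicate 2, so absence from the replicate 1 list does not mark a peak as low in replicate 2. The next 4, in ITGB1, ACTN4, PTK2 and ACTN1, had fold enrichments of 6.51, 7.25, 5.46 and 6.68. For ACTN1, ITGAV and the other 7 genes with replicate 2 peaks alone, FOXC1 occupancy thus rests on 1 library.

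Forkhead heptamers, the letters bound by this family of factors, were then counted at the summits. Within 50 bp, 32 of the 66 shared summits (48.5%, Wilson interval 36.8 to 60.3) held one, and 4 of 66 windows placed 500 bp downstream did (6.06%, 2.38 to 14.6). Over all shared regions the shares were 48.7% and 10.8%. At 12 of the 66 the match was centred within 10 bp of the summit. GTAAACA occurred at 14 summits, ATAAACA at 12, ATAAATA at 6 and GTAAATA at 3, with some holding more than 1 kind. The integrin regions held a match at 19 of 36 and the intracellular ones at 13 of 30, shares whose intervals overlap (37.01 to 68.01% and 27.4 to 60.8%).

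AP-1, a dimer of Jun and Fos proteins that binds many enhancers of adherent cells, has a heptamer that was found at 9 of the 66 summits (13.6%, 7.34 to 23.9), beside 16.6% of all shared regions and 3.03% of the downstream windows. Both kinds occurred together at 3 regions, and neither at 28. Of the 12 best regions 5 held a forkhead heptamer. Peaks of replicate 2 alone held a forkhead heptamer at 34 of 129 summits (26.4%, 19.5 to 34.6), and the share was 33.3% over the 28525 such peaks of the genome. These member peaks had a median −log10 q of 2.76, against 21.2 for the shared ones in replicate 2. The intervals take summits as independent, though many lie in the same gene, and the difference was not tested. In replicate 1 alone, 2 of 14 summits held a forkhead heptamer. A match is a description of the letters and no measure of binding, and a window without one may hold other sites.

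**Figure D5:**
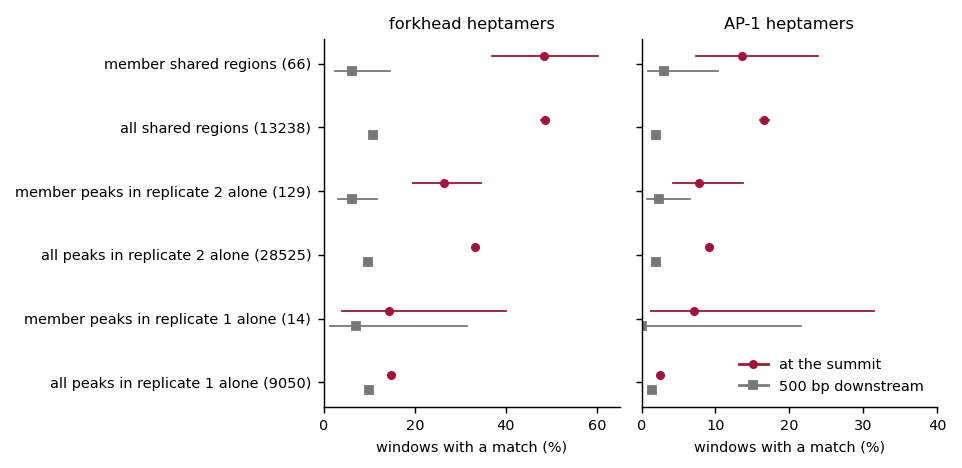
Share of windows with a forkhead (left) or AP-1 heptamer (right) within 50 bp of the summit (red circles) and 500 bp downstream (grey squares), in percent, for members and for the whole lists, with the number of windows in brackets and 95% Wilson intervals as lines. The forkhead share at member shared summits, 48.5%, is close to the 48.7% of all shared regions and above the 6.06% of the downstream windows.

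A further 54 genes of the adhesion machinery, such as kindlins, LIM proteins and Src family kinases, were set beside the members, and all were found in the annotation. Of these, 35 had a peak in replicate 1, 49 in replicate 2, 27 (50%) a shared region and 21 a strong one. The shares of all protein-coding genes were 47.0%, 66.2%, 33.0% and 20.2%. These 54 genes too are longer than most, with a median window of 92.4 kb. From the shortest length class to the longest, 5 of 9, 7 of 19, 4 of 11 and 11 of 15 had a shared region. All protein-coding genes had 19.3, 29.9, 48.9 and 69.6%, so the share was the lower in windows of 100 to under 200 kb. Their windows held 8.75 shared regions per Mb, which lies between all protein-coding genes and the members. Among the highest ranked were LPP, a LIM protein of focal adhesions with 16 shared regions, whose best had a fold enrichment of 19.0 and 23.5, and TES, the gene of testin, with 17.8 and 25.01. LIMD1 and AJUBA, genes of related LIM proteins, had 8.37 and 25.8 and 7.83 and 14.5 in replicates 1 and 2.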

How the data were processed

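FOXC1 ChIP-seq of J82 cells comprised 2 ChIP and 2 input libraries (single-end reads of 75 bp). The titles gave each library its group and replicate number. As the methods of the study and the submitters' processing notes state, the authors mapped reads to hg19 with BWA and called peaks against input with MACS2 2.2.7.1, and bedtools is also named. Each replicate has its own peak list, and replicates were not pooled. The methods also name the ENCODE3 pipeline and its IDR tool for reproducible peaks. These lists hold many peaks found in 1 replicate alone, and which filter made them is not given in the sources used here, and no file of the input libraries was analysed here. Peak positions were used as deposited, with starts shown counted from 1. The score deposited by the authors is −log10 p times 10, truncated, and was not used. The fold enrichment the authors deposited is a ratio of ChIP pileup to local background, 1 being added to both. Those deposited by the authors as −log10 p and −log10 q compare the same pileup with that background in 1 library, and carry no spread between replicates.

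Entries outside chromosomes 1 to 22, X and Y (42 and 43) were left out. Reads over each summit were recovered from fold enrichment and −log10 p as the whole number that gave both (residual of −log10 p under 0.001). All peaks were solved, 1 in replicate 1 and 764 in replicate 2 with another possible number, but no shared region of a member was among them. Totals of ChIP reads assume fragments of 260 and 270 bp and a genome of 2.7 Gb. The steps were tested on simulated data. Genes came from GENCODE version 44 mapped to GRCh37, and introns and exons are those of the canonical transcript. Shares have 95% Wilson intervals and read ratios exact Clopper-Pearson intervals, which cover counting error only. Both were computed with Python 3.11.15, pandas 2.3.3 and SciPy 1.17.1. With 1 group of 2 lists no test between groups was run, and members are described beside all 20163 protein-coding genes.

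The members, the 54 further adhesion genes and the motifs were chosen with earlier results of these data known. Full values are given for the 12 best member regions, the best region of each member with a strong one, and each region within 2 kb of a member's own start site. Single peaks are given by count and range with the strongest of each replicate, and the further genes by their 5 best, of which 1 is not reported here. Sequences are from the 8 best regions, leaving out 1 near an untranslated exon. Other single regions and genes were named after their values were seen. Alternatives changed the window, the filter on peaks, the overlap rule, the list length, the motif window and letters, the promoter distance and the replicates used.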

Additional observations from a re-analysis of the deposited data

How the results depend on the processing

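Of 66 alternative values, 44 were counted as close to those reported and 22 as moved, with 0 reversed. Close allowed counts to differ by a factor of up to 1.5. It took in 17 members with a strong region and 36 with a replicate 2 peak, beside 25 in the main setting. Counts, densities and shares have no direction to reverse, so the 0 carries no information on them. The median ratio of replicate 2 to replicate 1 stayed above 1, at 1.66 to 2.02. With peaks of −log10 q of at least 5, the windows held 38 shared regions (6.76 per Mb), 38 replicate 1 peaks and 80 of replicate 2, with overlap of 100% and 47.5%. With fold enrichment of at least 5, 14 members had a shared region, and there were 21 shared regions (3.73 per Mb), 21 replicate 1 peaks, all (100%) overlapped, and 52 of replicate 2. Requiring overlap of 50% of both peaks lowered the replicate 1 share to 72.5%. Cutting replicate 2 to the length of replicate 1 left 95 of its peaks, 63.2% of them overlapped. The forkhead share was 28.8% within 25 bp and 21.2% for GTAAACA alone, and the promoter share was 19.7% within 1 kb and 54.5% within 5 kb. With either replicate alone, 27 to 36 members had a peak, at 14.2 to 34.8 peaks per Mb, the forkhead share was 34.7 to 35% and the promoter share 25 to 34.7%. The gene body alone, or 5 or 50 kb on either side, left 21, 23 and 28 members with a shared region. No paired analysis was possible because the input libraries have no list here and the ChIP lists form 1 group. At this depth member summits held as few as 12 reads in replicate 1 and 11 in replicate 2, so weaker sites would not be listed.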
